A study of Homo sapiens with 3 samples.

Results

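The Golgi glycosyltransferases are the enzymes that build and cap the sugar chains of glycoproteins and glycolipids. They were described here in the human colorectal carcinoma line Caco-2, whose cells resemble absorptive enterocytes, after depletion of the transcript OCC-1 (gene symbol C12orf75). Members were chosen by gene symbol alone, as the polypeptide GalNAc transferases (GALNT), the B3GNT, B3GALT, B4GALT, ST3GAL, ST6GAL and ST6GALNAC families, the fucosyltransferases (FUT), MGAT1 to MGAT5 and their relatives, the GCNT family, A4GNT, A3GALT2 and C1GALT1. This gave 78 of 18132 genes, read by 201 probe sets. The symbol rule also took in an antisense RNA, B3GALT5-AS1, and a pseudogene, MGAT4EP.

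The study set 1 control array, from cells with the non-target hairpin shCTRL, against 1 array each from cells with shOCC-1-1 (line 1) and shOCC-1-2 (line 2). All 3 cultures had been transduced with lentivirus, grown in 20% serum, kept for 5 days in puromycin (1 µg/ml) and harvested 24 hours after its removal, so the control shares the vector and the drug. The labels do not call the 2 hairpin lines repeats of a single culture. The series took as OCC-1-regulated the genes that differed with both hairpins.

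As background, mucin-type O-glycans begin when a GALNT enzyme adds N-acetylgalactosamine (GalNAc) to serine or threonine, and core enzymes then set the branching pattern. N-glycans reach the Golgi as mannose-rich chains, on which MGAT enzymes start the branches with N-acetylglucosamine (GlcNAc). Galactose and GlcNAc lengthen both kinds of chain, and sialic acid or fucose caps them, which in the gut epithelium shapes mucins, blood group antigens and Lewis antigens.

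The median intensity was 185.5 on the control array, with 182.5 and 183.6 on those of line 1 and line 2. The targeted OCC-1 stood at 42.5% (line 1) and 32.5% (line 2) of its control intensity. All 12 epithelial markers of the Caco-2 label were above the intensity filter (a mean over the arrays of at least 184, the median of all probe sets), as were 5 of 8 goblet, 4 of 7 fibroblast, 2 of 6 leukocyte and 1 of 4 endothelial markers. The summed intensity of the goblet markers was 9386 on the control array against 8326 and 8494 on the knockdown arrays. Of these markers MUC2, FCGBP and CLCA1 were below the filter, and TFF3, SPINK4, ZG16, AGR2 and SPDEF were above it. Of those above it, 1 was higher and 4 were lower than control in both lines. The leukocyte sum was 1160, 1506 and 1311, with PTPRC, CD3E, CD68 and HLA-DRA below the filter. LYZ, a lysozyme that secretory epithelium also makes, was higher by 0.96 and 0.67 (log2). CD14, the other leukocyte marker above the filter, did not follow, with 0.11 in line 1 and -0.30 in line 2. The fibroblast sum was 1578, 1504 and 1607 and the endothelial sum 663, 608 and 658. The part of any of these in the results was not tested. The 23 background control probe sets, which differ in their number of G and C bases, differed from the control array by log2 0.06 to -0.37 in line 1 and by 0.04 to -0.23 in line 2. Their control intensities ran from 51.3 to 2307, a range that holds every member above the filter. Background therefore appears to remain in the values, and neither its share of each member's intensity nor the part of these shifts in the differences was tested.

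Of the 78 genes, 54 passed the filter, each represented by the probe set with its highest mean intensity. In each of the 54 the control value was itself above 184, so none passed through the knockdown arrays alone. The other 24 genes had control intensities from 73.2 to 166 and are not tested here. They were B3GALT1, B3GALT2, B3GALT4, B3GALT5, B3GALT9, FUT6, FUT7, FUT9, GALNT10, GALNT13, GALNT14, GALNT15, GALNT17, GALNT18, GCNT4, GCNT7, MGAT4C, MGAT5, ST6GAL2, ST6GALNAC1, ST6GALNAC2, ST6GALNAC5 and the 2 non-coding members. Intensities of different probe sets are not on a common scale, so levels are compared only between arrays.

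Across the 54 genes differences were small and went both ways. The size rule asked for 1.5-fold or more in one direction with both hairpins, and by it 1 gene was higher (1.85%) and 0 were lower, against 1.36% and 0.159% of all 11329 genes. By limma, which treated the 2 lines as 1 group and adjusted p over all genes, 4 members rose (7.41%) and 1 fell (1.85%), against 9.63% and 3.06% of all genes. The 5 were GALNT12, MGAT2, ST3GAL6, B4GALT2 and GCNT3. At an unadjusted limma p under 0.05 there were 12 higher and 11 lower members, and 17.9% of all genes were higher and 12.9% lower. The median log2 difference of the members was -0.07 in line 1 and -0.05 in line 2, beside -0.03 and -0.02 for all genes. Both lines were above control for 17 members (31.5%, beside 36.5% of all genes) and below it for 26 (48.1%, beside 45.7%), and the lines fell on opposite sides for 11. Line 1 alone had 2 members at least 1.5-fold higher and 0 lower, where all genes gave 1.93% and 0.212%. Line 2 alone had 1 of each, where all genes gave 1.87% and 0.406%. At 1.3-fold in both lines 3 members were higher (GALNT12, MGAT2 and ST3GAL6) and 0 lower, where all genes gave 5.31% and 0.936%. Limma had 1 residual degree of freedom, and its p-values measure only the spread between 2 arrays with different hairpins, with the lone control assumed to vary like them. Both lines also share that control, so a deviation of this array and an effect of the knockdown cannot be told apart.

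The start regions of GALNT12, MGAT2 and GCNT3 are shown because each of these called genes has a single start in the RefSeq table (build GRCh38.p14). Each line gives the 250 bases upstream of the start, 5′ to 3′, with capitals on 4 searched motifs, on either strand, where overlapping matches merge. The motifs were the GC box (GGGCGG), the CCAAT box (letters as in its name), the TATA box (TATAAA) and the E-box (CACGTG).
GALNT12 (chr9:98807420-98807669, plus strand): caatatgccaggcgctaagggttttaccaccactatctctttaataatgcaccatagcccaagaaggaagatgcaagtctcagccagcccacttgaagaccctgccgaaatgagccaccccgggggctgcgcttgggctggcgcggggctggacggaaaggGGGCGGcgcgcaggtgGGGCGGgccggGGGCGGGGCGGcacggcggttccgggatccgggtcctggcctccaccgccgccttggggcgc
MGAT2 (chr14:49620549-49620798, plus strand): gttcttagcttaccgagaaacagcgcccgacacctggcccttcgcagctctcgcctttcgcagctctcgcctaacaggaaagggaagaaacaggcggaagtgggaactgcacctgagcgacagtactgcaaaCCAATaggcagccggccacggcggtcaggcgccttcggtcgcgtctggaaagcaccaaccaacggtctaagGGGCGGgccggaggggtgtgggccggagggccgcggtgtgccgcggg
GCNT3 (chr15:59611533-59611782, plus strand): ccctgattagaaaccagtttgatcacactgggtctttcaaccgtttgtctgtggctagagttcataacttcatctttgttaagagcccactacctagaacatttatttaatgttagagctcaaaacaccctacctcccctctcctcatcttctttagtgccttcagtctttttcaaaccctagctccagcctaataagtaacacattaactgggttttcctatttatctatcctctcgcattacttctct
The GALNT12 window held 4 GC boxes, the motif of Sp-family factors, at a G and C content of 67.2%. That of MGAT2 held 1 GC box and 1 CCAAT box at 64.8%, and that of GCNT3 held none of the motifs at 40.4%. Starts were found for 61 of the 78 genes, 104 starts in all. A GC box was in 55.8% of these windows and in 42.6% of all 35114 windows of the same length. The CCAAT box was in 26.9% and 32.0%, the TATA box in 1.92% and 10.7%, and the E-box in 5.77% and 6.35%. ST3GAL6 has 4 starts in the table and B4GALT2 has 2, and the arrays do not show which are used. In both of these genes, which rose, some windows held searched motifs and others held none.

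Genes that start O-glycans held the largest difference shared by both lines, in GALNT12. Of 16 GALNT genes 10 passed the filter, and 6 of these were above control in both lines and 3 below, with median log2 differences of 0.17 in line 1 and 0.16 in line 2. Averaging the probe sets of each gene gave medians of -0.01 and 0.02 (7 genes). Leaving out the filter gave -0.03 and 0.05 (16 genes). Both of these settings bring in probe sets below the filter, and averaging also drops GALNT12. They therefore cannot decide whether the group has a direction, and none is claimed here. GALNT12, a GalNAc transferase found mainly in digestive organs, read 195 on the control array, 304 on that of line 1 and 307 on that of line 2. Both knockdown arrays were well above the control and nearly equal to each other. As measured it rose 1.56-fold and 1.58-fold, a log2 difference of 0.65 ± 0.01 (SD, n = 2 lines; limma adjusted p = 0.0054). The control value was close to the filter and lay between those of the background control sets with 16 and 17 G or C bases (145 and 206). Those sets were lower in both knockdown lines, by 0.16 and 0.17 in line 1 and by 0.14 and 0.15 in line 2. They were picked by control intensity alone, since the G and C content of the GALNT12 probes is not given here. The part of background in the GALNT12 difference was not tested. The fold is that of the signal together with its background. Its other probe set was below the filter, at 107, 126 and 114. With the mean of its probe sets GALNT12 drops below the filter and is not tested.

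GALNT1 and GALNT2, widely expressed family members, were higher in both lines but did not pass. GALNT1 had 1324 (control), 1701 (line 1) and 1492 (line 2), and 2 of its 3 other probe sets above the filter were also higher in both lines. Its remaining probe set was at 894, 1019 and 844. GALNT2 had 1117, 1440 and 1331 (0.31 ± 0.08 SD, n = 2; limma adjusted p = 0.054), while its other 2 probe sets differed by 0.11 and 0.07 and by -0.10 and -0.15. Limma called GALNT2 higher with an intensity trend, without the filter and after cyclic loess. Tested one by one against all probe sets, a dimmer set of GALNT1 and the brightest of GALNT2 rose (limma adjusted p = 0.038 and 0.041). GALNT7, which prefers peptides that already carry GalNAc, had 591, 714 and 694, and its second probe set went the same way (224, 292 and 270). Limma called GALNT7 higher without the filter and after cyclic loess. GALNT5 was lower in both lines, at 239, 206 and 198 (limma adjusted p = 0.083).

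GALNT6, a GalNAc transferase often raised in epithelial tumours, had the lowest log2 difference of the 54 members in line 2, and the hairpins differed. Its intensity was 946 (control), 772 (line 1) and 555 (line 2), so the 2 hairpin lines were themselves 1.39-fold apart. Its second probe set showed the same order, with 447, 395 and 300. The log2 difference was -0.53 ± 0.34 (SD, n = 2; limma adjusted p = 0.090), and the gene was at 58.7% of control in line 2 and 81.6% in line 1. Without line 1 it would therefore count as lower by size. Limma called GALNT6 lower after quantile normalization and when no filter was set.

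**Figure D1:**
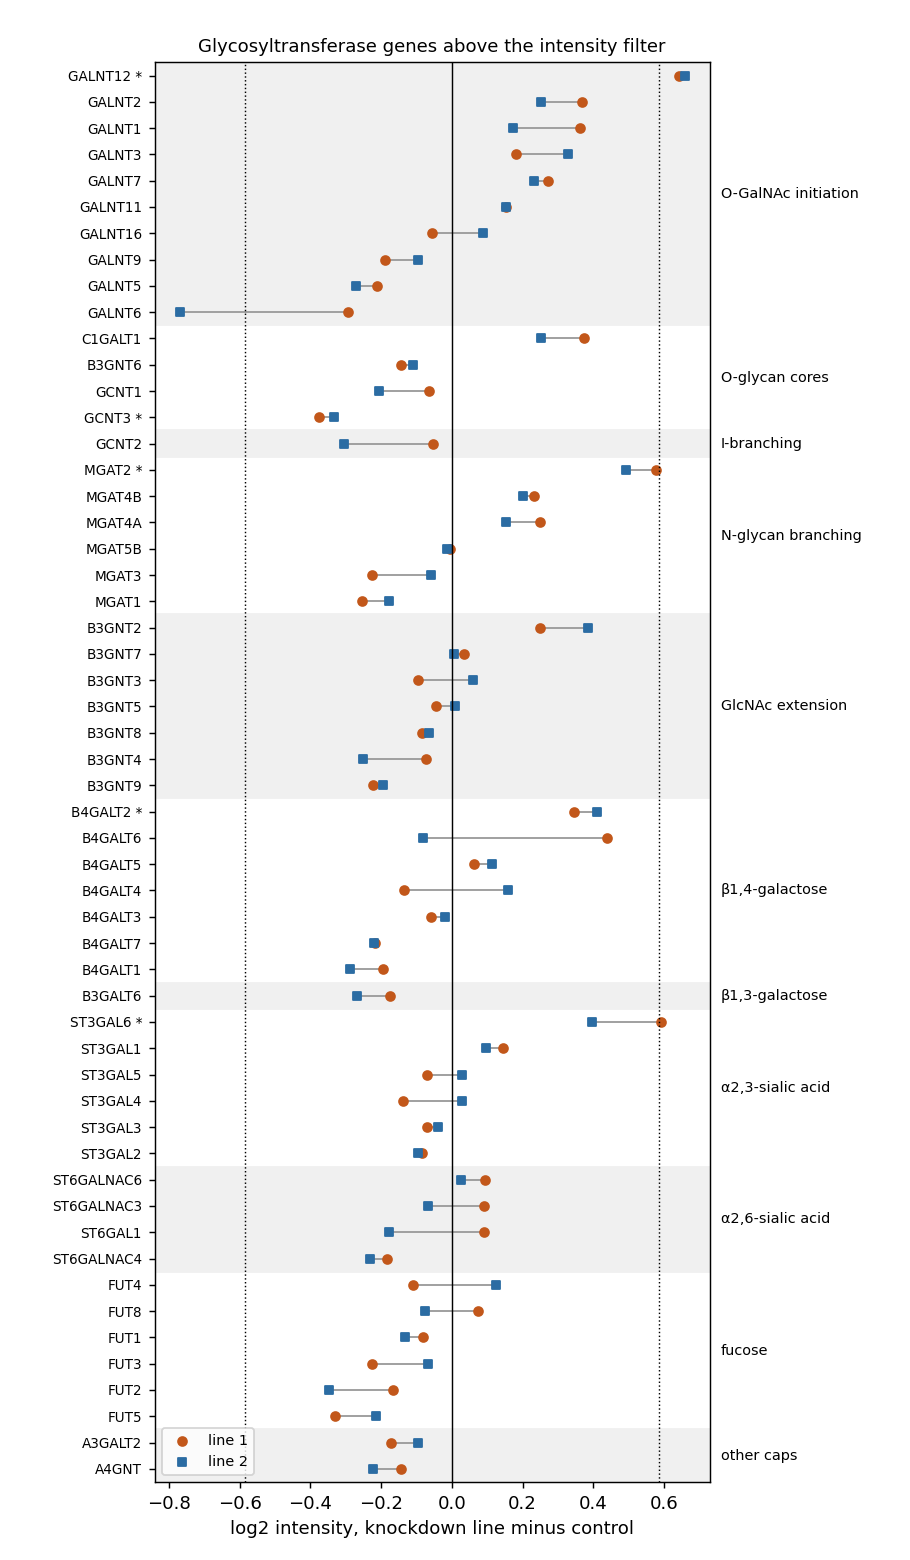
Log2 difference from control of each of the 54 glycosyltransferase genes above the filter (x axis), grouped by role, with a circle for line 1 and a square for line 2 (1 array each) and dotted lines at 1.5-fold. Asterisks mark the 5 genes past limma's adjusted p, of which GALNT12 alone lies beyond 1.5-fold in both lines.

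The enzymes that build O-glycan cores split. Of 4 above the filter 0 rose in limma and 1 fell (25.0%), beside 9.63% and 3.06% of all genes. GCNT3, which makes the core 2 and core 4 branches of mucins, fell from 330 in the control to 254 in line 1 and 261 in line 2. Both lines lay below the control, at 77.1% and 79.3% of it (-0.36 ± 0.03 SD, n = 2; limma adjusted p = 0.027). It was read by 1 probe set. The lower sum of the goblet markers above moved the same way, and its part in this result was not tested. The GCNT3 control value lay between those of the background control sets with 19 and 20 G or C bases (295 and 358). Those sets were also lower in both knockdown lines, by 0.21 and 0.22 in line 1 and by 0.19 and 0.20 in line 2. They were picked by control intensity alone, and the part of background in the GCNT3 difference was not tested. C1GALT1, the core 1 synthase, had 315, 408 and 374, higher in both lines (0.31 ± 0.09 SD, n = 2; limma adjusted p = 0.055). Limma called C1GALT1 higher in 5 of the 6 alternative settings that use 1 value per gene. They were the trend, no filter, quantile, cyclic loess and probe set mean, with log2 differences of 0.30 to 0.34. The core 2 enzyme GCNT1 (428, 409 and 371) and the core 3 enzyme B3GNT6 (429, 388 and 397) were below control in both lines and did not pass. GCNT2, which puts I-type branches on lactosamine chains, had 1246, 1201 and 1010.

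Among the N-glycan branching enzymes MGAT2, which adds the GlcNAc that makes a chain complex-type, rose. Its intensity was 759 (control), 1134 (line 1) and 1068 (line 2), so both lines were above the control. The difference was 1.49-fold and 1.41-fold (0.54 ± 0.06 SD, n = 2; limma adjusted p = 0.010). Its second probe set above the filter had 529, 584 and 553, a difference of 0.14 and 0.06. With the mean of all its probe sets MGAT2 no longer passed. That mean takes in 2 probe sets below the filter, with 140, 131 and 130 and with 78, 82 and 76.

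MGAT1, which starts every hybrid and complex N-glycan, gave opposite answers from its 2 probe sets. The brighter had 1158, 971 and 1025 (below control) and the dimmer 315, 376 and 363 (above control). MGAT4B, which adds a further branch, did the same on 4 probe sets. The brightest had 1426 (control), 1676 (line 1) and 1639 (line 2). The other 3 were lower in both lines, with 1022, 825 and 859, with 705, 537 and 552, and with 586, 486 and 498. Tested one by one against all probe sets, 2 of these 3 fell (log2 -0.28 and -0.37; limma adjusted p = 0.046 and 0.015), and the brightest did not pass at 0.22. The direction of MGAT1 and MGAT4B transcripts therefore depends on the probe set. MGAT3, the bisecting enzyme, had 275, 235 and 264. Of the 6 branching genes above the filter 3 lay above and 3 below control with both hairpins. In limma 1 of them rose (16.7%) and 0 fell, beside 9.63% and 3.06% of all genes.

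**Figure D2:**
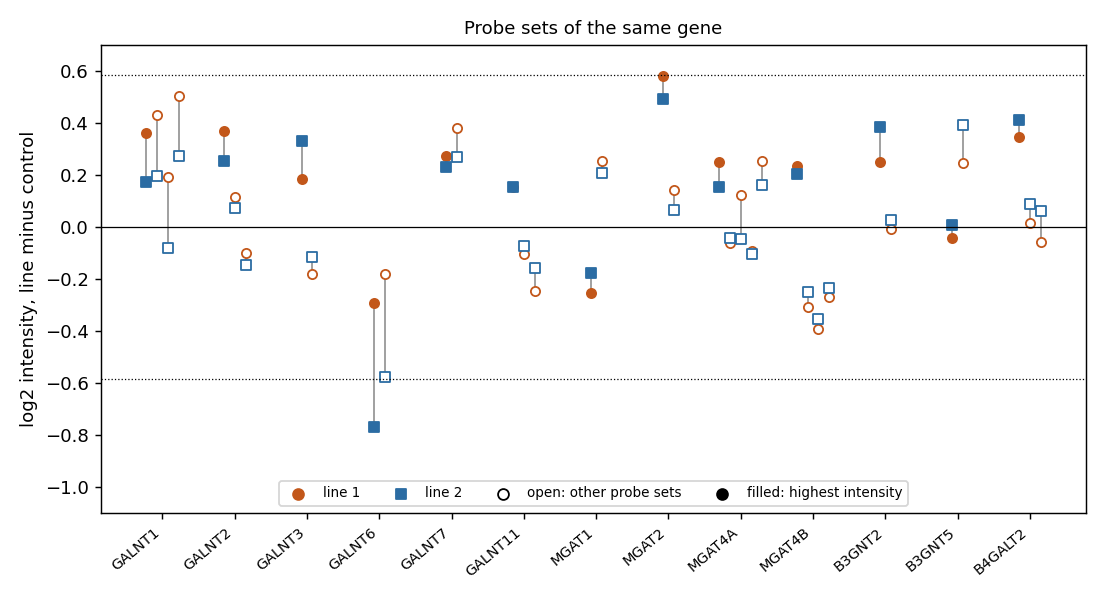
Log2 difference from control (y axis) of every probe set above the filter for 13 glycosyltransferase genes, with circles for line 1, squares for line 2 and filled marks for the probe set of highest intensity. MGAT4B has 1 probe set above the control and 3 below it, and both GALNT6 probe sets are lower in line 2 than in line 1.

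Disagreement of this kind was not particular to MGAT4B. Of 30 member genes with several probe sets above the filter, 3 had all of them higher in both lines, 4 had all lower and 8 had some higher and some lower. Over the whole array these 3 outcomes made up 18.2%, 22.2% and 30.1% of 5828 such genes, and among members the opposed share was 26.7%. The genes with all probe sets higher were MGAT2, GALNT7 and ST6GALNAC6, and those with all lower were GALNT6, B3GALT6, FUT3 and ST3GAL2. The 8 opposed genes were GALNT2, GALNT3, GALNT11, GCNT1, GCNT2, MGAT1, MGAT4A and MGAT4B. Fitted one by one, 10 of the 99 member probe sets above the filter rose and 3 fell in limma, beside 11.3% and 3.92% of all 22670. Those that rose were the brightest sets of GALNT12, MGAT2, ST3GAL6, B4GALT2, GALNT2, C1GALT1 and B3GNT2 and a dimmer one of GALNT1, GALNT7 and B3GNT5. Those that fell were of GCNT3 and MGAT4B. B3GNT5, a glycolipid enzyme, was among the remaining 15: its brighter probe set was level (566, 548 and 569) and its dimmer one rose (279, 331 and 366; limma adjusted p = 0.044).

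Among the enzymes that lengthen chains 1 of 7 beta-1,4-galactosyltransferases above the filter rose in limma (14.3%) and 0 fell. Over all genes 9.63% rose and 3.06% fell. B4GALT2, a beta-1,4-galactosyltransferase, rose from 799 in the control to 1015 in line 1 and 1063 in line 2, with both lines above the control. The difference was 1.27-fold and 1.33-fold (0.38 ± 0.05 SD, n = 2; limma adjusted p = 0.024). Its other 2 probe sets above the filter had medians of -0.02 and 0.07, and with the mean of all probe sets B4GALT2 no longer passed. That mean also takes in a probe set below the filter (179, 184 and 174). B4GALT1, the main galactosyltransferase of glycoproteins, had 2208, 1930 and 1808, below control in both lines (limma adjusted p = 0.093), and limma called it lower after quantile normalization. The lactosylceramide enzyme B4GALT5 had 2041, 2130 and 2210.

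B4GALT7 (312, 268 and 268) and B3GALT6 (929, 823 and 771), which both build the linker of proteoglycan chains, were below control in both lines without passing. None of the 7 GlcNAc extension enzymes passed in limma, and at an unadjusted p under 0.05 there were 1 higher and 1 lower, beside 17.9% and 12.9% of all genes. B3GNT2, the main polylactosamine enzyme, was the highest of them with 374, 445 and 488 (0.32 ± 0.09 SD, n = 2; limma adjusted p = 0.055). Its second probe set did not follow, with differences of -0.01 and 0.03. Limma called B3GNT2 higher without the filter and after cyclic loess. B3GNT9 was the lowest, with 285, 244 and 249.

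Among the sialic acid caps 1 of 6 alpha-2,3 genes above the filter rose in limma (16.7%) and 0 fell. Over all genes 9.63% rose and 3.06% fell. ST3GAL6, which adds alpha-2,3-linked sialic acid to lactosamine chains, had 284 (control), 428 (line 1) and 374 (line 2). Both lines were above the control, line 1 more so, and the gene rose 1.51-fold and 1.32-fold (0.49 ± 0.14 SD, n = 2; limma adjusted p = 0.022). It was read by 1 probe set. On the brightest probe set of each, the other 5 ST3GAL genes differed from control by at most 0.14 (log2) in both lines. ST3GAL2 had 517, 487 and 484 and ST3GAL4 495, 450 and 504. A dimmer probe set was lower in both lines for ST3GAL2 (-0.21 and -0.33) and for ST3GAL4 (-0.27 and -0.15). Tested one by one against all probe sets, neither passed in limma, and the remaining set of each gene differed by less. None of the 4 alpha-2,6 genes above the filter passed in limma, with 0 higher and 1 lower at an unadjusted p under 0.05 (17.9% and 12.9% of all genes). The lower one was ST6GALNAC4, which adds sialic acid to sialylated core 1 chains, at 706, 622 and 601.

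ST6GAL1, the alpha-2,6-sialyltransferase of N-glycans, lay on opposite sides of the control in the 2 lines. Its intensity was 1597 (control), 1702 (line 1) and 1414 (line 2), and line 1 was above line 2 by 0.27 on the log2 scale. The second probe set had 809, 813 and 648, which was again lower in line 2 than in the other 2 arrays.

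**Figure D3:**
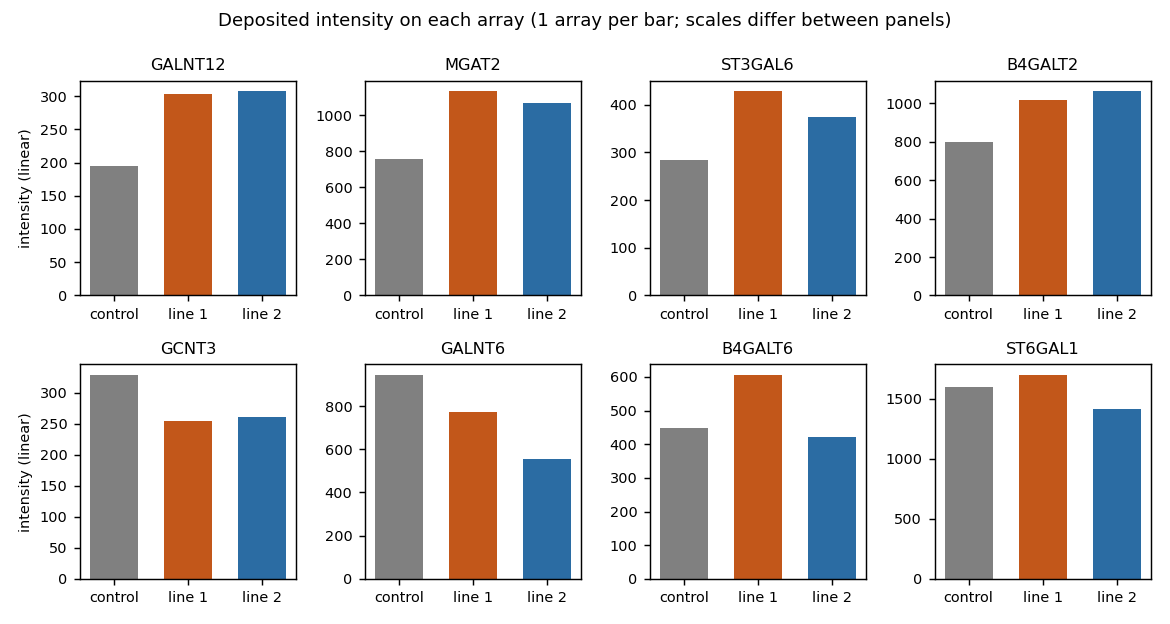
Deposited intensity (y axis, linear, from 0) of 8 glycosyltransferase genes on the control, line 1 and line 2 arrays, 1 array per bar, with a scale of its own in each panel. GALNT12, MGAT2, ST3GAL6 and B4GALT2 are above and GCNT3 below the control in both lines, while GALNT6, B4GALT6 and ST6GAL1 differ between the lines.

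Of 6 fucosyltransferases above the filter, 4 were below control in both lines and 0 above it, beside 45.7% and 36.5% of all genes. Their medians were -0.14 in line 1 and -0.10 in line 2. None passed in limma, and at an unadjusted p under 0.05 there were 0 higher and 2 lower (17.9% and 12.9% of all genes). FUT5 had 217, 172 and 187 (-0.27 ± 0.08 SD, n = 2; limma adjusted p = 0.075), and limma called it lower without the filter. FUT3, FUT5 and FUT6, the Lewis-type enzymes, are close copies whose probes may not separate them, so FUT5 is uncertain as a result of its own. FUT4 had 685, 635 and 747 and FUT8, the core fucosyltransferase, 629, 663 and 597, with the 2 lines on opposite sides of the control in both genes. This held only for the brighter probe set of each. The second was below control in both lines, with 602, 474 and 538 for FUT4 and 465, 437 and 403 for FUT8. A4GNT, known for gastric mucin caps (424, 384 and 363), and A3GALT2 (710, 630 and 664) were below control in both lines and did not pass.

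Between the 2 hairpin lines few members differed. Of the 54, 2 were at least 1.3-fold apart (3.70%), against 0.733% of all genes, and with 1 array per line this has no test. They were GALNT6, given above, and B4GALT6, a lactosylceramide enzyme with 447 (control), 607 (line 1) and 422 (line 2). B4GALT6 was 1.44-fold higher in line 1, and its other probe sets were below the filter. In the other direction B4GALT4 (668, 609 and 746) was 1.23-fold higher in line 2, FUT4 was 1.18-fold higher and MGAT3 1.12-fold higher. The 19 members above the filter that the naming rule left out (B3GNT3, B3GNT4, B3GNT7, B3GNT8, B4GALT3, FUT1, FUT2, FUT3, GALNT11, GALNT16, GALNT3, GALNT9, MGAT4A, MGAT5B, ST3GAL1, ST3GAL3, ST3GAL5, ST6GALNAC3 and ST6GALNAC6) differed from control by -0.22 to 0.25 in line 1 and by -0.35 to 0.33 in line 2, and none passed in limma.

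**Figure D4:**
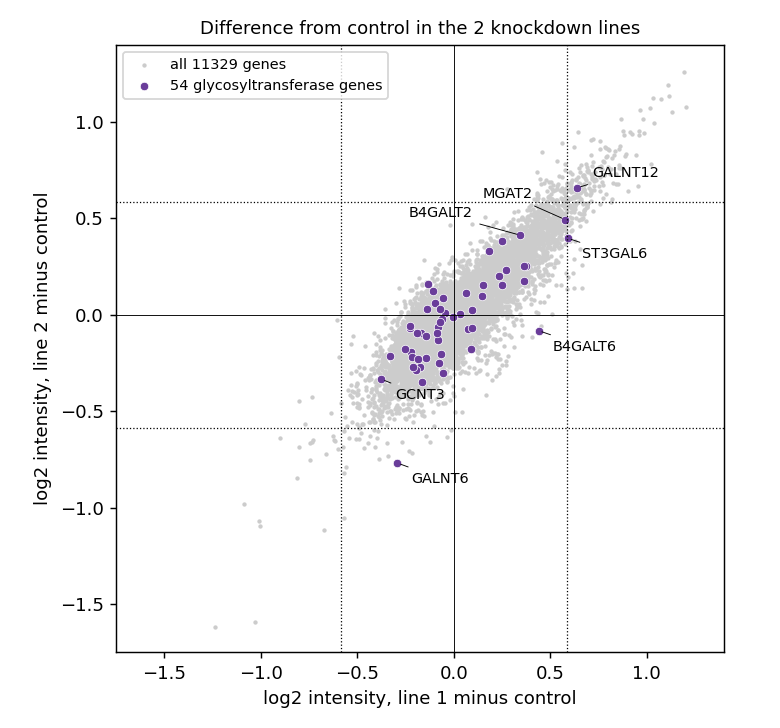
Log2 difference from control in line 1 (x axis) and line 2 (y axis) for 11329 genes (grey) and the 54 glycosyltransferase genes (purple), with dotted lines at 1.5-fold. Both axes share the control array, and GALNT6 and B4GALT6 lie farthest from the diagonal among the labelled members.

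Genes that supply or surround these enzymes were counted from 9 further lists. Of 124 such genes above the filter 9 rose and 5 fell in limma (7.26% and 4.03%), beside 9.63% and 3.06% of all genes. By size 0 were 1.5-fold from control in both lines, beside 1.36% higher and 0.159% lower of all genes. The same shares of all genes apply to each list below. The medians of the 124 genes were 0.02 in line 1 and -0.02 in line 2. Among 14 genes of the nucleotide sugar transporter list 2 rose and 2 fell, and not all of these carry nucleotide sugars. SLC35B3, which carries the sulfate donor PAPS, had 971, 1287 and 1237 and SLC35A2, the UDP-galactose transporter, 801, 974 and 1002, but the 4 other SLC35A2 probe sets had medians of -0.14 and -0.16. SLC35A4 (553, 412 and 408) and SLC35B1 (2960, 2358 and 2271), known as an ATP/ADP exchanger of the endoplasmic reticulum, fell. The other SLC35A4 probe set was level (-0.02 and 0.00), and that of SLC35B1 was lower (-0.35 and -0.53).

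In donor synthesis 1 of 20 genes rose, UAP1, which makes UDP-GlcNAc, with 451 (control), 641 (line 1) and 620 (line 2) (0.48 ± 0.03 SD, n = 2; limma adjusted p = 0.011). In N-glycan trimming 1 of 12 rose, the mannosidase MAN1A1 (1097, 1394 and 1478), whose 3 other probe sets had medians of 0.01 and 0.00. Of 19 genes for N-glycan precursors and their transfer, the transferase subunit STT3B rose (1318, 1717 and 1628) and ALG3 (1286, 1041 and 981) and ALG14 (390, 318 and 307) fell. The 6 other STT3B probe sets had medians of only 0.08 and 0.07, while the other ALG3 probe set was also lower (-0.31 and -0.34). Among 9 glycan-degrading enzymes the lysosomal beta-mannosidase MANBA rose from 327 to 499 and 462, and its other probe set differed by 0.45 in both lines.

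Of 19 Golgi structure genes 1 rose, GOLPH3, which helps to hold glycosyltransferases in the Golgi, with 935 (control), 1318 (line 1) and 1267 (line 2) (0.47 ± 0.04 SD, n = 2; limma adjusted p = 0.012). Of 17 glycosaminoglycan enzymes XYLT1 rose (181, 231 and 225) and EXT2 fell (1096, 888 and 782), but the 3 other EXT2 probe sets had medians of 0.02 and -0.06. Of 3 genes of the sulfotransferase list TPST2 rose (194, 261 and 236). TPST2 sulfates tyrosines of proteins, not glycans. The control values of XYLT1 and TPST2 lie at the level of the background control sets, like that of GALNT12. The control value of XYLT1 was below the filter, so this gene passed it through the knockdown arrays. Of 11 other Golgi glycosyltransferases and the core 1 chaperone, 0 passed in limma, with 3 higher and 0 lower at an unadjusted p under 0.05 (17.9% and 12.9% of all genes).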

How the data were processed

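The authors deposited a linear intensity for each of 49395 probe sets on each of 3 arrays. Per the submitters' processing notes RMA was used, with version, settings and background treatment not given in the sources used here. Intensities were converted to log2 and not normalized further. Probe sets with 1 symbol in the platform annotation (44988) were used, those with several (1832) or none (2473) were not, among them 5 that name a GALNT gene beside another gene. The probe set of highest mean per gene was taken, and genes below log2 7.52 were left out. Knockdown was compared with control by size (1.5-fold in both lines) and by limma 3.58.1. Limma used R 4.3.3, lmFit, eBayes, 6.96 total degrees of freedom and Benjamini-Hochberg over 11329 genes, two-sided. It was also run on simulated data in which all 3 arrays had the same spread. That run could not test whether the lone control varies like the knockdown arrays. Differences carry the SD of the 2 lines, and the number of arrays limits precision. Alternatives covered probe set averaging, filter, normalization, background, threshold and single lines. Members and gene lists were chosen with earlier results of these data known. Named genes were those called by size, the 8 largest differences each way, the 2 brightest per role, the 3 most different between lines each way, and any with another probe set 1.5-fold from control (none qualified). Promoter windows came from NCBI RefSeq. Python 3.11.15 and matplotlib 3.10.9 drew the plots.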

Additional observations from a re-analysis of the deposited data

How the results depend on the processing

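All 5 members called by limma (GALNT12, MGAT2, ST3GAL6, B4GALT2 and GCNT3) stayed called without a filter, after quantile normalization, cyclic loess or normexp background correction, and with an intensity trend in eBayes. With the mean of all probe sets per gene, over 44 member genes, 2 of them did (ST3GAL6 and GCNT3). Each of these is read by 1 probe set, so averaging could not change its values. By size 0 members were then higher, and 2 rose in limma (ST3GAL6 and C1GALT1, beside 6.96% of all genes). GALNT12 fell below the filter, and MGAT2 and B4GALT2 no longer passed. For each of these genes the mean takes in a probe set or probe sets below the filter. Limma called 8 higher and 3 lower members of 78 with no filter (8.25% and 3.93% of all genes), 8 higher after cyclic loess (1356 of 11329 over all genes), and 3 lower after quantile normalization (6.94%). Over all genes the quantile setting moved the share of limma calls that were higher from 75.9% to 59.2%, and among members the split from 4 higher and 1 lower to 5 and 3. With every probe set on its own 10 member probe sets were higher and 3 lower. By size 3 members were higher at 1.3-fold (5.56%, beside 5.31% of all genes) and 0 at 2-fold. Line 1 or line 2 alone gave 1 to 2 higher members and 0 to 1 lower, with no limma test since no residual degrees of freedom remain. Beyond what fewer probe sets or arrays explain by construction, the cause was not tested. Both medians moved by less than the spread between lines, and no named member that was called changed sign. No paired analysis was possible because the groups share fewer than 2 replicate numbers. Intensity near the array background limits the dim members.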
